A study of Mus musculus with 6 samples.

Results

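Expression of 10 genes of the muscle connective tissue matrix was examined in gastrocnemius, a fast calf muscle, of mice with an induced deletion of the vitamin D receptor gene Vdr. They were chosen by name: the small leucine-rich proteoglycans decorin (Dcn), lumican (Lum), biglycan (Bgn) and fibromodulin (Fmod), and the adhesive and matricellular glycoproteins periostin (Postn), fibronectin (Fn1), tenascin C (Tnc), osteonectin (Sparc), thrombospondin 4 (Thbs4) and connective tissue growth factor (Ctgf). All 10 were found once each among the 43346 genes of the deposited table, and all 10 passed the low-count filter that left 15583 genes. Polyadenylated RNA was sequenced from 6 samples of male mice aged 6 months. Every mouse was homozygous for a Vdr allele with loxP sites around exon 3 and carried a Cre recombinase fused to a mutated estrogen receptor, under the human skeletal actin promoter ACTA1, so recombination is directed to muscle fibres and not to the fibroblasts between them. The 3 knockout samples came from mice given intraperitoneal tamoxifen at 100 mg/kg for 5 days, and the 3 vehicle samples from mice given 10% ethanol in corn oil. Tamoxifen and deletion therefore cannot be told apart in this comparison, and mice given tamoxifen without Cre were not analysed here. The labels number each sample differently but do not state that each is a separate mouse, so p-values measure the spread between these samples, which may be technical. The diet held vitamin D3 at 3.4 IU/g and 0.81% calcium, and muscle was taken after tests made 10 days after the last injection.

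The libraries held 30486874 to 39909535 counted reads, and a count of 3 corresponded to 0.0752 to 0.0984 CPM (counts scaled to library size). Knockout replicate 2 stood apart, with its 10 top genes taking 15.1% of its reads, where they took 20.8% to 25.2% elsewhere, and with the highest slow-fibre gene levels. The labelled tissue held all 10 general muscle fibre markers examined, with summed levels of 62047 to 85803 CPM. Vdr was weakly expressed, with 52, 27 and 40 reads in the knockout and 46, 48 and 61 in the vehicle libraries, and its log2 fold change was -0.37 (SE 0.37, edgeR adjusted p = 0.848). A count over the whole gene checks the labels only in part, since reads from the other exons remain in it.

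Small leucine-rich proteoglycans are short secreted proteins whose curved leucine-rich repeats bind collagen fibrils and control their thickness and spacing. Matricellular proteins are secreted into the same matrix but act mainly as signals: they bind integrins and growth factors, above all transforming growth factor beta, and are known to be induced in muscle by injury, loading and fibrosis. In skeletal muscle most of these genes are known as products of fibroblasts and fibro-adipogenic progenitors, while fibromodulin, tenascin C and thrombospondin 4 are also known from tendon and from the junction between muscle and tendon.

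Upstream sequences were available for 6 of the 10 genes (Fmod, Postn, Tnc, Sparc, Thbs4 and Bgn, 8 start sites in all), from RefSeq on GRCm38.p6. The 250 bases before the start are shown for Postn, which had the largest fold change of the 10, and for Fmod and Thbs4, whose estimates had the opposite sign. They lie at chr3:54360857-54361106 on the plus strand (Postn), chr1:134037004-134037253 on the plus strand (Fmod) and chr13:92794819-92795068 on the minus strand (Thbs4), and each reads 5′ to 3′ along its gene. Capitals mark matches, on either strand, to GGAATG (the core bound by TEAD factors), TGANTCA (AP-1), CAGACA (a Smad half-site) or the Smad palindrome.
Postn: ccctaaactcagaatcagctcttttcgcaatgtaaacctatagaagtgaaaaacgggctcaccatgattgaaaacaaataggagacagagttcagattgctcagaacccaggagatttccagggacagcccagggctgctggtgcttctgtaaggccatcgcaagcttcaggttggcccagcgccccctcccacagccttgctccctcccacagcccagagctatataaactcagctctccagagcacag
Fmod: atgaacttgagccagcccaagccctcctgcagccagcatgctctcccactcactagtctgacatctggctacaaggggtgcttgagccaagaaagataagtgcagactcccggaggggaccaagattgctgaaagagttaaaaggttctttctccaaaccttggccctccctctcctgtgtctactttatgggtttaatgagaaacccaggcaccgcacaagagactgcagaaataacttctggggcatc
Thbs4: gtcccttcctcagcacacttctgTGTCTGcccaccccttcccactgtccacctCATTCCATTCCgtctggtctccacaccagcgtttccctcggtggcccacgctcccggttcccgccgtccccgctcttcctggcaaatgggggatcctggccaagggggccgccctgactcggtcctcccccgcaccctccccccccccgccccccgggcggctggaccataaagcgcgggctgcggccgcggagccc
The Postn and Fmod windows held none of these letters. The Thbs4 window held 2 overlapping TEAD core matches and 1 Smad half-site. Of the windows not shown, 1 of the 2 for Tnc and the 1 for Sparc each held 1 Smad half-site, and no window of the 6 genes held AP-1 or the Smad palindrome. Among all 32851 windows of the same length, 12.6% held the TEAD core, 6.75% AP-1, 17.1% the Smad half-site and 0.167% the palindrome.

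Levels were first ordered per length, as deposited FPKM (reads scaled by gene length and library total). Decorin led at 165.9 ± 15.4 FPKM in vehicle muscle (SD, n = 3), followed by Sparc at 64.4 ± 5.76 and Thbs4 at 37.9 ± 6.67. The vehicle ranges of these 3 genes did not overlap with each other or with the genes below. Fmod followed at 16.0 ± 0.733 FPKM, then Ctgf at 11.8 ± 5.09, Lum at 8.04 ± 1.29, Bgn at 6.93 ± 2.15 and Fn1 at 4.22 ± 1.74. From Fmod down to Fn1, the range of each gene's vehicle libraries overlapped with that of the next, although Bgn was above Fn1 within each vehicle library. Postn at 1.176 ± 0.485 FPKM and Tnc at 0.481 ± 0.157 FPKM were lowest and clear of their neighbours. In the knockout libraries Dcn, Sparc and Thbs4 kept the first 3 places, at 213.8 ± 99.2, 87.7 ± 40.6 and 35.2 ± 10.9 FPKM, and Lum came next at 17.2 ± 10.4 FPKM. The knockout ranges of every neighbouring pair in this order overlapped except those of Postn and Tnc. Within each single knockout library, however, Dcn exceeded Sparc, Sparc exceeded Thbs4, Thbs4 exceeded Lum and Fn1 exceeded Postn.

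The comparison of knockout with vehicle asked whether any of these matrix genes differed after the deletion was induced. Postn and Lum had the largest mean differences, 2.49-fold and 1.94-fold higher in knockout, and Fn1 and Bgn were 1.71-fold and 1.51-fold higher in mean CPM. Fmod and Thbs4 had lower means, at 0.799 and 0.863 of the vehicle level. None of the 10 was called: with edgeR 0 had an adjusted p below 0.05, as was the case for 0 (0%) of 15583 genes. DESeq2 called 0 of the 10, against 0.743% of the 14667 genes to which it gave an adjusted p. Estimates were higher in knockout for 8 of the 10 genes, against 52.9% of all genes, and their median log2 fold change was 0.30 against 0.021 over all genes. The genes with an unadjusted p below 0.05 were Lum and Postn, 2 of the 10, both higher, against 4.02% of all genes higher and 3.42% lower at that p. Without knockout replicate 1 this count was 5 of the 10, against 1940 of 16071 genes tested. It was 0 without knockout replicate 2 (738 of 15949 genes) and 0 without vehicle replicate 3 (594 of 16083 genes). No member's knockout libraries lay wholly above or below its vehicle libraries, while 12.3% of all genes did. The count of higher estimates was 6 without knockout replicate 2 or without vehicle replicate 3, and 9 without knockout replicate 1. In bulk muscle, more cells of a type and more RNA per cell cannot be told apart.

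**Figure D1:**
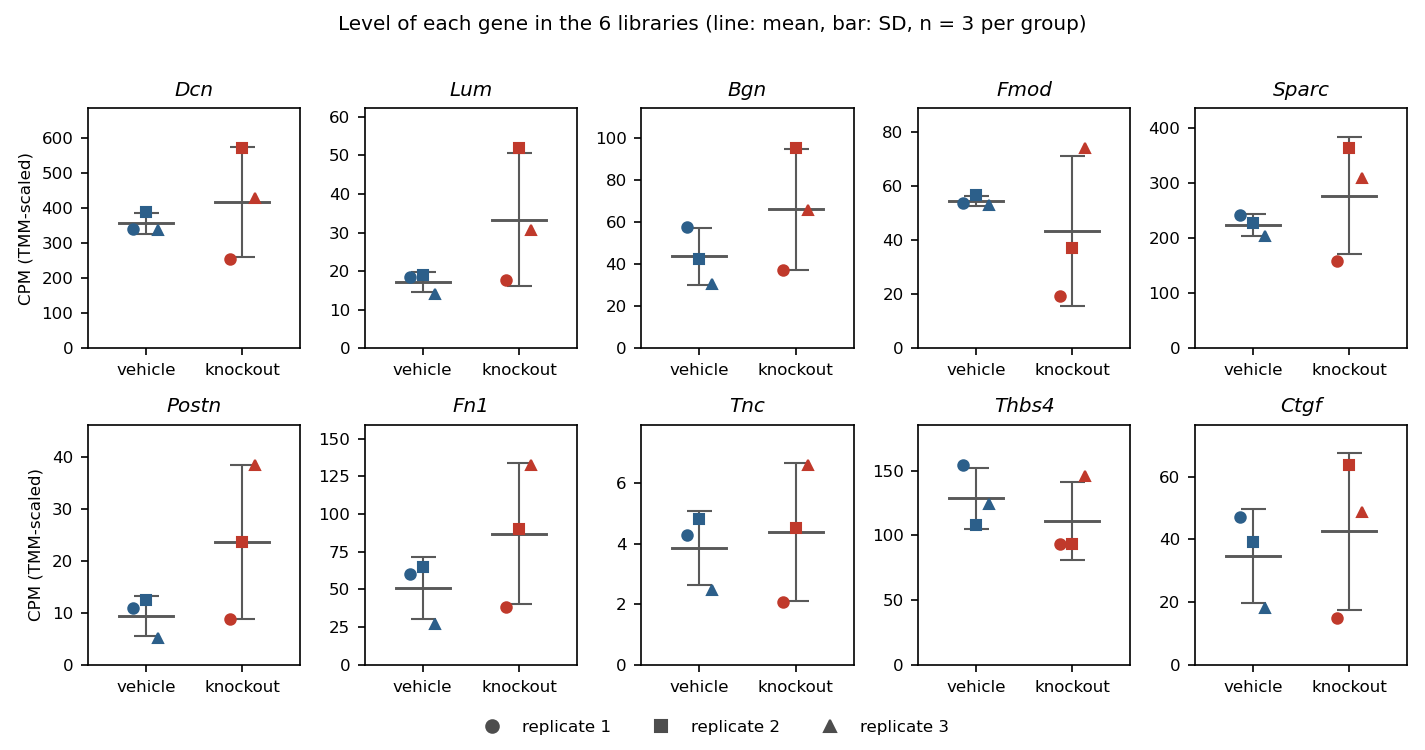
CPM (vertical axis, from 0, scaled separately for each gene) of the 10 matrix genes in the 3 vehicle (blue) and 3 knockout (red) libraries; marker shapes give the replicate, lines the mean and bars the SD. Knockout replicate 1 is the lowest knockout library for all genes but Thbs4, and replicates 2 and 3 are above every vehicle library for all genes but Fmod, Tnc and Thbs4.

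**Figure D2:**
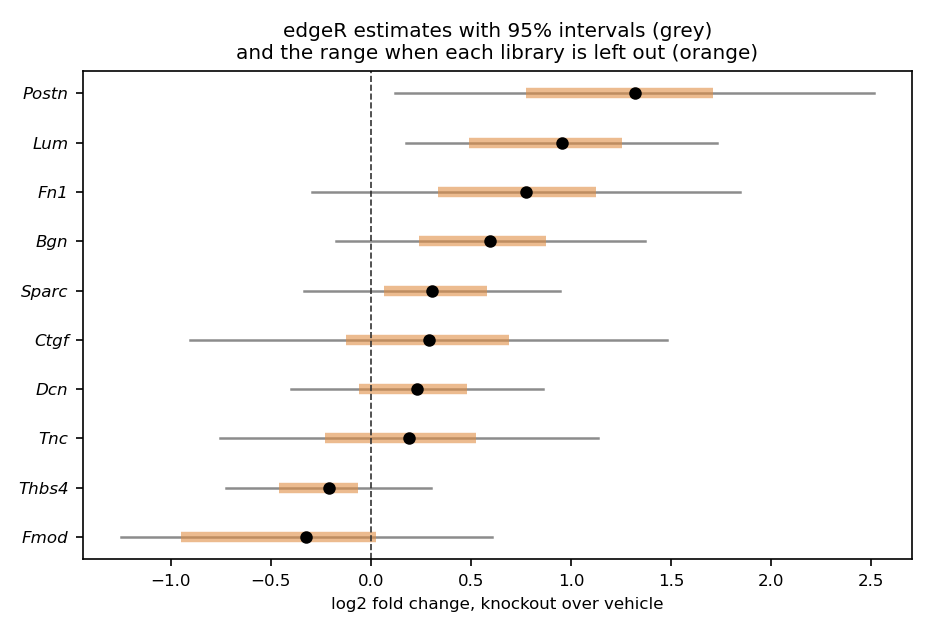
Log2 fold change of knockout over vehicle (horizontal axis) from edgeR for the 10 genes, with 95% intervals in grey and the range over fits without each library in orange. The intervals of Postn and Lum lie above 0, those of the other 8 genes include 0, and the lowest adjusted p is 0.640.

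Lumican, which limits the lateral growth of collagen fibrils, had the largest fold change among the proteoglycans, although its groups overlapped. Its knockout libraries held 17.6, 51.8 and 30.7 CPM and its vehicle libraries 18.5, 19.0 and 14.2 CPM. Replicates 2 and 3 of the knockout were above all vehicle libraries, and replicate 1 lay among them. On the log2 scale the fold change was 0.95 with an SE of 0.34 and a 95% interval of 0.18 to 1.73 (edgeR adjusted p = 0.640). Leaving out 1 library gave 0.49 (without knockout replicate 2) to 1.25 (without knockout replicate 1).

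Decorin, the most abundant of the 10 and a collagen-binding proteoglycan that also sequesters transforming growth factor beta, held 257, 571 and 429 CPM in knockout libraries. The vehicle libraries were tightly grouped at 342, 391 and 338 CPM, so the knockout values lay on both sides of them. Its log2 fold change was 0.23 (SE 0.28, edgeR adjusted p = 0.876). The estimate was -0.060 without knockout replicate 2 and 0.48 without knockout replicate 1.

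Biglycan, the closest relative of decorin, held 37.4, 94.9 and 65.8 CPM in knockout and 57.8, 42.7 and 30.6 CPM in vehicle libraries. Here too knockout replicate 1 lay within the vehicle range and the other 2 above it. On the log2 scale its fold change was 0.60 (SE 0.34, edgeR adjusted p = 0.731). It was 0.24 without knockout replicate 2, 0.39 without vehicle replicate 3 and 0.87 without knockout replicate 1.

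Fibromodulin, a relative of lumican that shares its binding region on collagen and is abundant in tendon, departed from the others. Vehicle libraries were nearly equal at 53.9, 56.7 and 53.1 CPM, whereas knockout libraries held 19.5, 37.2 and 74.0 CPM. Replicates 1 and 2 lay below and replicate 3 above every vehicle library. Its estimate on the log2 scale was -0.32 (SE 0.40, edgeR adjusted p = 0.881), and it was 0.024 without knockout replicate 1 and -0.95 without knockout replicate 3.

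Periostin, an integrin ligand that helps assemble collagen and is induced in fibrotic tissue, had the largest estimate. The knockout libraries held 8.81, 23.7 and 38.5 CPM, from 303, 819 and 1440 reads, and the vehicle libraries 10.9, 12.4 and 5.14 CPM. Replicates 2 and 3 of the knockout were above all vehicle libraries, and replicate 1 was below vehicle replicates 1 and 2. Its log2 fold change reached 1.32 with an SE of 0.52 and a 95% interval of 0.12 to 2.52 (edgeR adjusted p = 0.646). Leaving out 1 library gave 0.77 (without knockout replicate 3) to 1.71 (without knockout replicate 1). In an exact two-sided permutation test over the 20 arrangements of 6 libraries, where the smallest p possible is 0.1, p was 0.3. Lum had the same p of 0.3 in this test.

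Fibronectin, the adhesive protein on which cells assemble other matrix fibres, followed periostin closely across libraries. It held 38.7, 89.9 and 132.5 CPM in knockout and 60.2, 65.2 and 27.2 CPM in vehicle libraries, with the groups overlapping through knockout replicate 1. Fn1 had a log2 fold change of 0.78 (SE 0.46, edgeR adjusted p = 0.741). Without knockout replicate 3 the value was 0.34, without vehicle replicate 3 it was 0.47, and the highest, 1.12, came without knockout replicate 1.

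Tenascin C, a large glycoprotein that loosens cell adhesion and is made at sites of strain and repair, was the least abundant. Knockout libraries held 71, 156 and 247 reads, or 2.06, 4.51 and 6.60 CPM, and vehicle libraries 4.27, 4.82 and 2.48 CPM. Knockout replicate 2 lay inside the vehicle range, between replicate 1 below it and replicate 3 above. The log2 fold change was 0.19 (SE 0.42, edgeR adjusted p = 0.942), and its sign turned without knockout replicate 3 (-0.23) or vehicle replicate 3 (-0.052).

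Sparc, a collagen-binding glycoprotein needed for collagen deposition, held 159, 363 and 310 CPM in knockout and 242, 227 and 203 CPM in vehicle libraries. As with decorin, the vehicle libraries were close together and the knockout libraries lay on both sides. Sparc had a log2 fold change of 0.31 (SE 0.28, edgeR adjusted p = 0.830). It was 0.063 without knockout replicate 2, 0.22 without knockout replicate 3 and 0.58 without knockout replicate 1.

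Thrombospondin 4, a calcium-binding pentamer of tendon and muscle matrix, varied least of the 10. It held 93.8, 93.7 and 146 CPM in knockout and 154, 108 and 124 CPM in vehicle libraries. Knockout replicates 1 and 2 lay below every vehicle library, as for Fmod. Its highest library was vehicle replicate 1, the only case among the 10 genes in which a vehicle library was highest. Thbs4 had a log2 fold change of -0.21 (SE 0.23, edgeR adjusted p = 0.859). It ranged from -0.46 without knockout replicate 3 to -0.064 without vehicle replicate 1, and was -0.10 without knockout replicate 2 and -0.11 without knockout replicate 1.

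Ctgf, a matricellular regulator of fibroblasts that is induced by transforming growth factor beta and by the mechanical effector YAP, ranged widely in both groups. The values were 15.1, 63.7 and 48.8 CPM in knockout and 47.1, 39.2 and 18.1 CPM in vehicle libraries, with knockout replicate 1 and vehicle replicate 3 below the rest. The log2 fold change was 0.29 (SE 0.52, edgeR adjusted p = 0.927) and turned to -0.12 without knockout replicate 2 and to -0.026 without vehicle replicate 3. It was 0.17 without knockout replicate 3, 0.57 without vehicle replicate 1 and 0.69 without knockout replicate 1. The GENCODE M21 gene model Gm15270, on the opposite strand, overlaps Ctgf and had a mean of 0.358 CPM, and other models overlap Fn1 and Tnc. Since the strand setting of the counting is not given in the sources used here, a part of these reads could belong to either strand.

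Much of the variation lay between knockout libraries. Knockout replicate 1 was below both other knockout libraries for 9 of the 10 genes, which held for 33% of all genes, and was the lowest of all 6 libraries for 5 of the 10, against 13.2% of all genes. Knockout replicate 2 was the highest library for 5 genes (Dcn, Lum, Bgn, Sparc and Ctgf), against 27.6% of all genes, and knockout replicate 3 for 4 (Postn, Fn1, Tnc and Fmod), against 15.3%. The standard deviation of log2 CPM was larger among knockout than among vehicle libraries for 10 of 10 genes, against 58.7% of all genes. That count rested on knockout replicate 1: without it 5 of the 10 genes varied more in knockout, against 52.4% of all genes. Among the vehicle libraries, replicate 3 was the lowest for 9 of the 10 genes, against 38.9% of all genes. The summed level of the 10 genes ran from 648 to 1394 CPM in knockout and from 816 to 991 CPM in vehicle libraries.

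**Figure D3:**
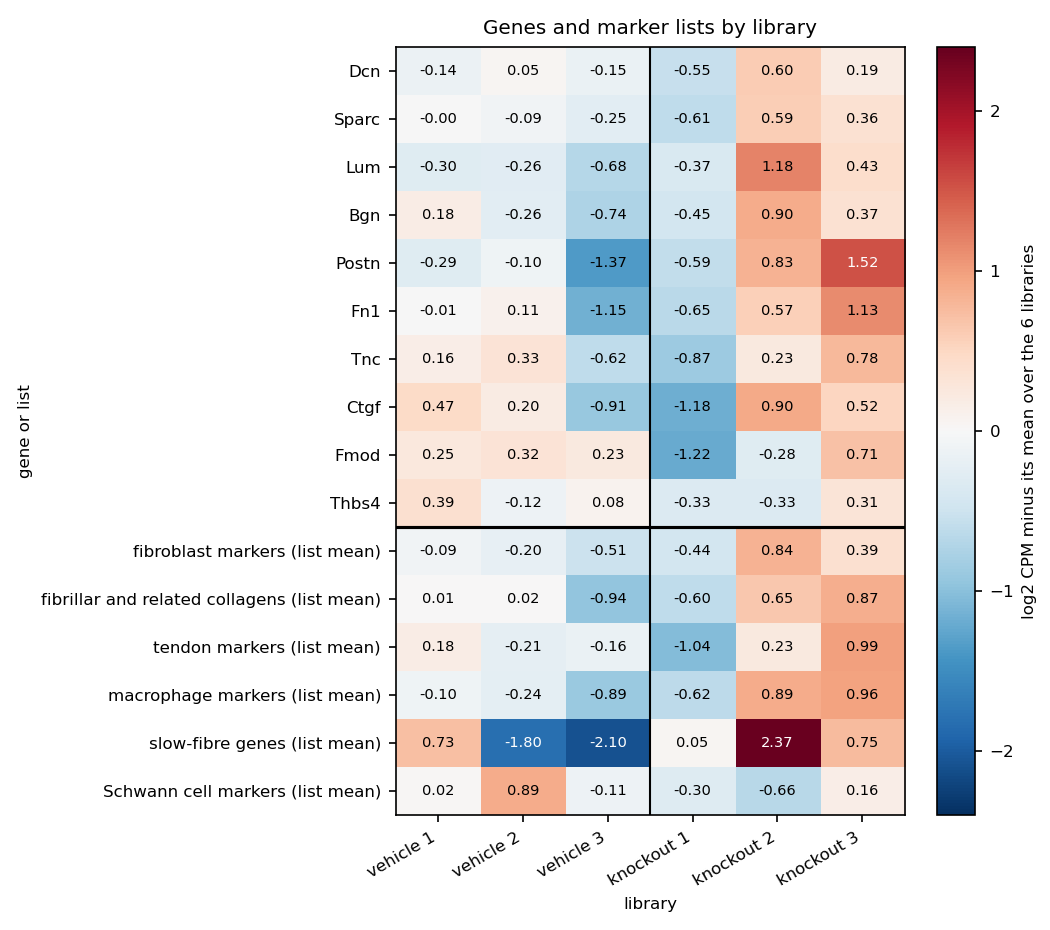
Log2 CPM of the 10 genes, each minus its mean over the 6 libraries, and below the line the mean of the same value over 6 marker lists; columns are libraries and colour gives the value printed in each cell. Knockout replicate 1 and vehicle replicate 3 are low for most genes and for the fibroblast, collagen and macrophage lists, and knockout replicates 2 and 3 are high.

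Marker lists of other cells differed in how their libraries were ordered. Fibroblast and fibro-adipogenic progenitor markers had 14 of 14 estimates higher, of which 3 had an unadjusted p below 0.05, and a summed level of 962 to 2153 CPM in knockout and 949 to 1319 CPM in vehicle libraries. Their mean, relative to the 6 libraries, was -0.44, 0.84 and 0.39 on the log2 scale for the 3 knockout replicates in order, and -0.087, -0.20 and -0.51 for vehicle replicates. Macrophage markers had 13 of 13 tested estimates higher, 8 with an unadjusted p below 0.05, and summed to 54.7 to 170 CPM in knockout and 43.7 to 76.7 CPM in vehicle libraries. Tendon markers had 8 of 10 estimates higher and summed to 42.2 to 145 CPM in knockout and 70.6 to 117 CPM in vehicle libraries, with the lowest value in knockout replicate 1 and the highest in knockout replicate 3, as for Fmod. Slow-fibre genes had 12 of 12 estimates higher, with means of 0.049, 2.37 and 0.75 in knockout and 0.73, -1.80 and -2.10 in vehicle libraries. Adipocyte markers had 10 of 10 estimates higher, 6 with an unadjusted p below 0.05, and a median log2 fold change of 1.12, but their means of 0.80, 1.13 and -0.35 in knockout and -0.041, -0.30 and -1.24 in vehicle libraries put knockout replicate 1 high, where the mean of the 10 matrix genes was -0.68. Smooth muscle and pericyte markers had 6 of 10 estimates lower, of which 3 (Cnn1, Acta2 and Tagln) had an unadjusted p below 0.05 and did not overlap between groups. These 3 encode contractile proteins of smooth muscle, while the 4 higher estimates, 0.12 to 0.30 on the log2 scale, were of pericyte markers. Schwann cell markers had 9 of 10 estimates lower and fast-fibre genes 12 of 14. Endothelial markers had 7 of 10 estimates higher with a median of 0.13, and satellite cell markers 5 of 10 with a median of -0.018. The endothelial gene Cldn5 was lower without overlap between groups (edgeR unadjusted p = 0.0010). Of the satellite cell markers, Myog was lower without overlap (edgeR unadjusted p = 0.0016) and Calcr higher without overlap (edgeR unadjusted p = 0.138). Across all tested genes, 4.02% were higher and 3.42% lower at an unadjusted p below 0.05, and 12.3% did not overlap between groups. In none of these lists did a gene pass an adjusted p of 0.05, none of their members was at 0 in all libraries, and their part in the differences above was not tested.

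Each gene was also set against the fibroblast list mean of the same library. Lum was then higher in all knockout libraries (0.066, 0.34 and 0.041 on the log2 scale) than in the vehicle libraries (-0.21, -0.065 and -0.17). Dcn was lower in all knockout libraries (-0.12, -0.24 and -0.20 against -0.049, 0.25 and 0.35), and so were Sparc (-0.17, -0.25 and -0.030 against 0.087, 0.11 and 0.26) and Fmod (-0.78, -1.13 and 0.32 against 0.34, 0.52 and 0.73). The Fmod groups were separated narrowly, between knockout replicate 3 and vehicle replicate 1. Postn, with the largest difference on the unadjusted scale, overlapped between groups here. In all, 4 of the 10 genes did not overlap between groups on this scale, against 7.73% of all genes. Without the subtraction that share of all genes was 12.3%, so it depends on the scale. Subtraction removes variation shared with the list and adds the list's variation to genes that do not follow it. The share among genes that follow the list was not computed.

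Proportions between the 10 genes were then compared within each library. A ratio of CPM does not depend on how libraries are scaled. Overlap was judged on differences of log2 CPM with a prior count of 2, which can depend on scaling where counts are low. These ratios are of CPM and not per length, so only their change between libraries is read. Of 45 pairs, 15 had ratios that did not overlap between groups, against 12.9% of all pairs of tested genes. The pairs share genes, so the 15 are not separate results, and an exact two-sided permutation test of any 1 ratio cannot go below 0.1. Postn was relatively higher in knockout in all 6 of its non-overlapping pairs and Lum in all 5 of its own, while Fmod was relatively lower in all 4. These directions restate the order of the fold changes, with Postn and Lum at the top and Fmod at the bottom, and add no further evidence. The ratios described next were chosen after their values were seen.

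Periostin and fibronectin kept a ratio with little spread within each group. Postn was 0.228, 0.264 and 0.290 of Fn1 in knockout and 0.181, 0.191 and 0.189 in vehicle libraries. Relative to tenascin C, Postn stood at 4.27, 5.25 and 5.83 in knockout and 2.55, 2.58 and 2.07 in vehicle libraries. Fn1 itself was 18.8, 19.9 and 20.1 times Tnc in knockout and 14.1, 13.5 and 11.0 times in vehicle libraries. Knockout replicate 1, which was low in all 3 genes, was on the knockout side in each of these ratios. That holds for any pair chosen because its groups did not overlap, so it is no further support. The ratio of Postn to Tnc also follows from the other 2. Lum was 0.0687, 0.0907 and 0.0715 of Dcn in knockout and 0.0541, 0.0486 and 0.0420 in vehicle libraries. Fmod was 0.503, 0.414 and 0.558 of Fn1 in knockout and 0.895, 0.869 and 1.95 in vehicle libraries. Lum was 0.906, 1.39 and 0.414 of Fmod in knockout and 0.344, 0.335 and 0.267 in vehicle libraries. With 1 library left out, 16 to 21 of the 45 pairs did not overlap, where 19.1% to 31.4% of all pairs did.

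**Figure D4:**
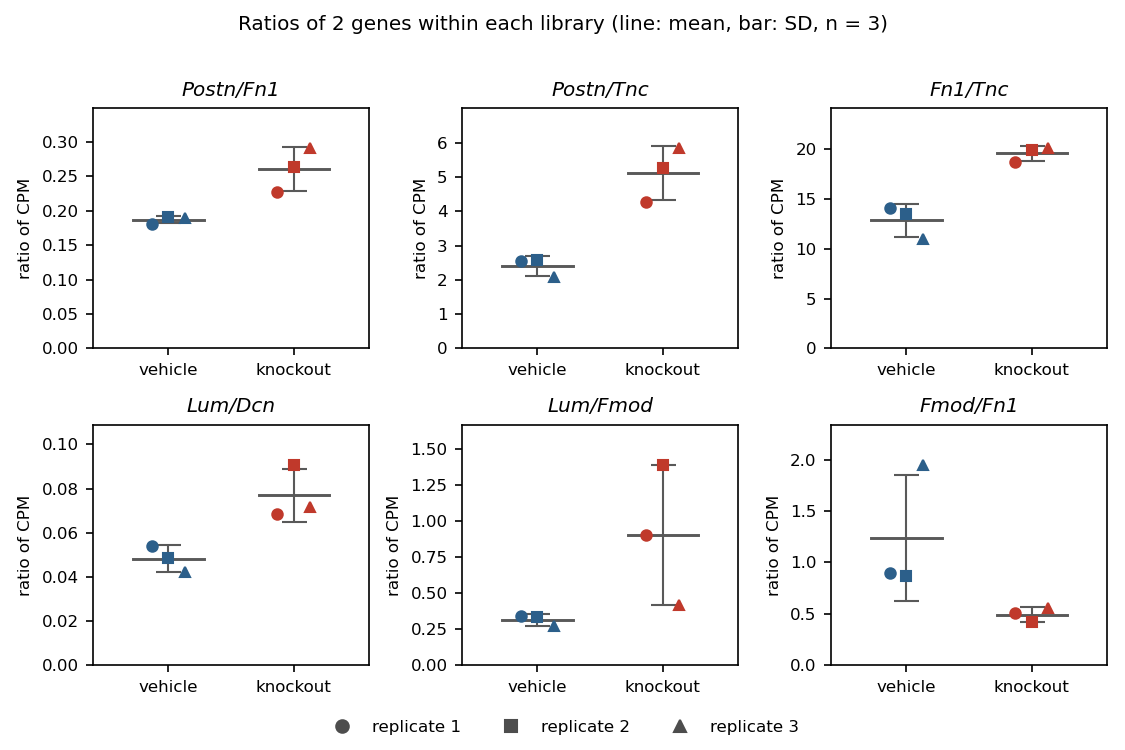
Ratio of CPM of 2 genes in each library (vertical axis, from 0) for 6 of the 15 pairs that did not overlap, chosen after their values were seen; shapes give the replicate, lines the mean and bars the SD of 3 libraries. Postn over Fn1 lies at 0.181 to 0.191 in vehicle and 0.228 to 0.290 in knockout libraries, and Lum over Fmod is at most 0.344 in vehicle and at least 0.414 in knockout libraries.

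Position and family were the next features compared. In the deposited mm10 coordinates Dcn lies on chromosome 10 from 97479500 to 97518162 and Lum 47.3 kb further on, from 97565501 to 97572703, followed after 34.5 kb by the keratocan gene Kera and after a further 30.4 kb by the epiphycan gene Epyc. Fmod lies on chromosome 1 from 134037254 to 134048277, 115.8 kb from Prelp, a proteoglycan that anchors basement membranes. These neighbours did not all share 1 order of libraries, and how often neighbouring genes elsewhere do was not tested. Kera held 1.19, 4.69 and 8.31 CPM in knockout and 2.39, 2.96 and 3.24 CPM in vehicle libraries, and so was highest in knockout replicate 3, whereas Dcn and Lum were highest in knockout replicate 2. Epyc had 0 reads in every library. Prelp held 16.8, 34.3 and 30.5 CPM in knockout and 24.2, 24.8 and 16.8 CPM in vehicle libraries, without the low knockout replicate 2 of Fmod. Bgn stands apart on chromosome X from 73483602 to 73495933.

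The remaining genes, all protein-coding, lie at separate loci. Postn is on chromosome 3 from 54361109 to 54391034, Fn1 on chromosome 1 from 71585520 to 71653200 and Tnc on chromosome 4 from 63959785 to 64047015. Sparc is on chromosome 11 from 55394500 to 55420080, Thbs4 on chromosome 13 from 92751590 to 92794818 and Ctgf on chromosome 10 from 24595442 to 24598683.

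Among the other small leucine-rich proteoglycans, 9 of 13 could be tested and 8 of the 9 had higher estimates in knockout. None passed the adjusted threshold, and 1, asporin (Aspn), had an unadjusted p below 0.05. Aspn, which resembles decorin and biglycan, held 9.83, 27.3 and 18.2 CPM in knockout and 9.85, 10.9 and 10.2 CPM in vehicle libraries, the same order of libraries as Lum within the knockout group. Its log2 fold change was 0.83 (SE 0.32, edgeR adjusted p = 0.645). Other matricellular and adhesive glycoproteins had 16 of 20 estimates higher. Thbs1, an activator of latent transforming growth factor beta and a relative of Thbs4, was the only one with an unadjusted p below 0.05 and was lower in estimate, at 26.9 ± 13.7 CPM in knockout and 59.7 ± 37.2 CPM in vehicle libraries (SD, n = 3 each; log2 fold change -1.15, SE 0.48, edgeR adjusted p = 0.664).

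The transforming growth factor beta axis, which controls many of these genes in fibroblasts, was divided, with 8 of 18 estimates higher and 10 lower and a median log2 fold change of -0.025. Of these, 2 higher and 3 lower genes had an unadjusted p below 0.05. The corepressor Tgif1 was at 6.86 ± 2.62 CPM in knockout and 24.0 ± 10.2 CPM in vehicle libraries (SD, n = 3 each), without overlap between groups, and its edgeR adjusted p was 0.408. The ligand Tgfb2 was at 15.1 ± 1.21 and 24.96 ± 5.10 CPM and the receptor Tgfbr2 at 36.6 ± 4.13 and 24.9 ± 2.13 CPM, also without overlap, with edgeR adjusted p values of 0.526 and 0.576. Integrins and other receptors for these proteins had 7 of 15 estimates higher, with only the thrombospondin and fatty acid receptor Cd36 at an unadjusted p below 0.05 (log2 fold change 0.94, SE 0.34, edgeR adjusted p = 0.636).

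Collagens, the fibrils that the proteoglycans coat, had 13 of 13 estimates higher and a median log2 fold change of 0.69, with 1 unadjusted p below 0.05 (Col11a1). Their summed level was 369 to 1107 CPM in knockout and 292 to 557 CPM in vehicle libraries. The order of libraries in their mean matched that of Postn and Fn1 for the highest (knockout replicate 3) and the lowest (vehicle replicate 3). This was not particular to collagens, since the means of the macrophage markers and of the crosslinking enzymes had the same highest and lowest libraries. Crosslinking and collagen-processing enzymes had 11 of 14 estimates higher. Their member of smallest p, the transglutaminase Tgm2, was lower in estimate, at 226 ± 43.9 CPM in knockout and 347 ± 69.8 CPM in vehicle libraries, without overlap (SD, n = 3 each; edgeR adjusted p = 0.643). Genes of the YAP and mechanical response had 12 of 15 estimates higher, and the motin Amotl2 was at 13.3 ± 0.555 and 9.65 ± 0.517 CPM, without overlap (edgeR adjusted p = 0.636). No gene in any of these lists passed the adjusted threshold.

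The 10 genes were finally matched to the genes whose log2 CPM, centred on its mean, differed least from theirs over the 6 libraries, by root mean square difference. Dcn and Sparc were the closest pair among the 10, at 0.115, followed by Lum and Bgn at 0.232 and Postn and Fn1 at 0.256, while Postn and Thbs4 were the farthest apart at 0.950. Among the 8846 other genes (8847 for Tnc) with a mean of at least 5 CPM, Oaf was nearest to Sparc (0.032), Sulf2, a heparan sulfatase, was nearest to Bgn (0.048), and Sh3bgrl was nearest to Dcn (0.072). Clec3b, the fibroblast marker tetranectin, was nearest to Lum (0.104), and the matrix proteoglycan gene Vcan was nearest to Tnc (0.141). Postn had Fn1 and the macrophage mannose receptor gene Mrc1 as its nearest, both at 0.256, and Mrc1 held 3.84, 11.1 and 13.7 CPM in knockout and 6.01, 4.001 and 2.27 CPM in vehicle libraries. Fn1 itself was nearer to the transporter gene Abca9 (0.174) than to Postn.

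Fmod was nearest to Cilp (0.173), a secreted matrix protein of cartilage and tendon. Cilp held 25.5, 38.6 and 68.8 CPM in knockout and 69.8, 63.8 and 58.9 CPM in vehicle libraries, again with 2 knockout libraries below all vehicle libraries. Ctgf was nearest to Cyr61 (0.217), the related matricellular gene of the same family. Cyr61 held 16.1, 68.0 and 37.1 CPM in knockout and 55.5, 44.5 and 16.4 CPM in vehicle libraries, with knockout replicate 1 and vehicle replicate 3 low as for Ctgf. Thbs4 was nearest to Phtf1 (0.129) and Ednrb (0.133), neither of them a matrix gene. With 6 libraries and so many candidates, some close matches arise for any gene, and these are descriptions without a test.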

How the data were processed

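RNA of 6 gastrocnemius samples, 3 knockout and 3 vehicle by recorded phenotype, was read from 1 deposited table of read counts per gene. For these deposited counts the processing notes name STAR 2.6.1c, featureCounts, Subread 1.5.1 and mm10, per the labels; annotation release and strand setting: not given in the sources used here. The deposited FPKM equalled the count over the listed length plus 1 and the column total within 0.01% for 100% of nonzero values, so they carry no further normalization.

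The counts went into edgeR 4.0.16 (R 4.3.3): filterByExpr (minimum count 10, minimum total 15), TMM factors of 0.912 to 1.13 and a robust quasi-likelihood test, two-sided, with Benjamini-Hochberg adjustment across the 15583 genes kept (threshold 0.05). Standard errors come from the F statistic. CPM use TMM-scaled library sizes, and log2 CPM a prior count of 2. DESeq2 1.42.0, limma 3.58.1 and the other alternatives are listed in the closing section. The procedure was tested on simulated data. All 10 genes were named, with up to 3 of smallest p from each other list and the 2 nearest genes to each. Genes, lists and motifs were chosen with earlier results of these data known. The ratios, the comparison with the fibroblast list and the counts by library were added after seeing the data. 1 of 17 listed macrophage markers was not matched by name.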

Additional observations from a re-analysis of the deposited data

How the results depend on the processing

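None of the 10 genes was called under any of 16 alternatives, and their lowest adjusted p was 0.131 (Lum, edgeR without knockout replicate 1). An unadjusted p below 0.05 was reached by 1 of the 10 with no low-count filter (1512 of 23845 genes). With limma 0 of the 10 reached it on log2(FPKM + 0.1) (1061 of 15583 genes) and 0 on log2(FPKM + 1) (1040 of 15583). Postn, Lum, Bgn, Fn1, Sparc and Thbs4 kept their direction in all 15 refits, and the median log2 fold change of the 10 genes ran from 0.12 to 0.63. Without 1 library, Dcn ran from -0.060 to 0.48, Fmod from -0.95 to 0.024, Tnc from -0.23 to 0.52 and Ctgf from -0.12 to 0.69, and Ctgf was at -0.013 with limma-voom and sample quality weights. Over all genes the number called was 0 with edgeR, 7 at an adjusted p below 0.1, 109 with DESeq2, 29 with no low-count filter, 4 with DESeq2 size factors in edgeR, 4 with limma-voom and sample quality weights, and 0 to 24 without 1 library. Upper-quartile factors, estimation without robustness, a filter of 1 CPM in 3 libraries and limma on log2(FPKM + 0.1) or log2(FPKM + 1) gave 0. The cause was not tested. The number of the 10 genes that varied more in knockout was 5 to 10 without 1 library, where 38.7% to 70.1% of all genes did. The number of non-overlapping pairs was 16 to 21 of 45, where 19.1% to 31.4% of all pairs did not overlap. With all libraries it was 15, against 12.9% of all pairs. No paired analysis was possible because the labels give no replicate numbers shared by the groups. Tnc, the gene of lowest count, rested on 71 to 247 reads a library, and the 3 samples per group limited the precision for all 10 genes.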
